A study of Mus musculus with 47 samples.

Results

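The 14-3-3 proteins are a family of small adaptor proteins that work as dimers and bind partner proteins at phosphorylated serine or threonine residues. Binding can hold a partner in the cytosol, mask a signal on it or change its enzyme activity, and the partners include kinases, pro-death factors, transcriptional coactivators and ion channels. Brain is known for a high content of most of these proteins, and the family takes its gene names from the activation of tyrosine and tryptophan hydroxylases. The genes described here were Ywhab (14-3-3 beta), Ywhae (epsilon), Ywhag (gamma), Ywhah (eta), Ywhaq (theta) and Ywhaz (zeta), selected by symbol. They were 6 of the 18193 genes named on the array and were read by 30 of its 34945 probesets that carried a single symbol. The family was picked with the change of Ywhaz probesets at 8h already known, so the values at 8h are a description: no p is given for them, and a count of calls at 8h supports nothing.

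The series followed gene expression in medial prefrontal cortex of adult male C57BL/6J mice after chronic intermittent ethanol (CIE) given as vapor, against mice kept in air (Ctrl). CIE mice spent 16 hours a day for 4 days in ethanol vapor at 10 to 13 mg/l, followed by 7 days without ethanol, over 4 such cycles, and received an injection of 1.6 g/kg ethanol before each cycle, while Ctrl mice received saline. All mice of both groups received the alcohol dehydrogenase inhibitor pyrazole at 1 mmol/kg, so pyrazole was common to every comparison and no group lacked it. Tissue was taken at 0h, 8h, 72h and 7d after the last exposure. The CIE groups held 6, 5, 6 and 6 mice in that order of time, the Ctrl groups held 6 mice each, and every mouse had its own array, 47 in all. Values are log2 expression after robust multi-array averaging (RMA), so a difference of 1 is a doubling. The tissue was whole dissected cortex, in which a lower share of a cell type and less RNA per cell cannot be told apart.

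Several arrays stood apart before any comparison was made. Averaged over all other arrays, the correlation of the array from CIE 8h mouse 15 was 0.967, against a median of 0.992 and a highest value of 0.994 over all arrays. The next lowest arrays were CIE 0h mouse 17, CIE 72h mouse 3 and Ctrl 0h mice 2 and 20. Arrays came in 2 repeat groups, and repeat group 2 held 8h arrays alone: CIE mice 15 and 23 and Ctrl mice 32, 42 and 50. Mouse 15 was farthest from the median of its group in 16 of the 30 14-3-3 probesets. Markers of the labelled tissue were bright: the 9 measured of 10 cortical excitatory neuron genes averaged 11.5 in CIE 8h and 11.4 in Ctrl 8h mice on the log2 scale. At 0h all 10 measured of 12 striatal medium spiny neuron markers were higher in CIE mice, with a median difference of 0.68, although 0 of the 10 passed the limma test. Their mean log2 level ran from 8.37 to 10.3 in CIE 0h mice and from 8.05 to 8.62 in Ctrl 0h mice, and their part in the 0h values below was not tested.

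Every selected 14-3-3 gene had at least 1 bright probeset, and bright probesets differed little between CIE and Ctrl mice at 0h, 72h and 7d and more at 8h. Of the 30 probesets, 25 had a mean level of at least 10 on the log2 scale (10.1 to 14.1), which placed each above 87.7% of all probesets. The other 5 had mean levels of 4.31 to 7.28 and read Ywhab (1438708_x_at), Ywhag (1459693_x_at and 1420816_at) and Ywhaz (1436981_a_at and 1439005_x_at). This division at a level of 10 was made after the values were seen, and it describes signal on the array, not transcript number. The bright probesets differed between CIE and Ctrl by -0.17 to 0.11 at 0h, -0.12 to 0.24 at 72h and -0.09 to 0.31 at 7d. Their median absolute difference was 0.05 at 0h, 0.03 at 72h and 0.04 at 7d, beside 0.12, 0.08 and 0.09 over all 45037 probesets at the same times. At 8h they ran from -0.64 to 0.42 with a median absolute difference of 0.10, beside 0.13 over all probesets. The full set includes dimmer probesets, and no set of like level was compared. Within the family the median SD within groups was 0.11 for bright and 0.40 for dim probesets.

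No 14-3-3 probeset passed the limma test at 0h, 72h or 7d (FDR ≤ 0.01 over all probesets). At 0h 0 of 30 were called, where 7.28% of all probesets were called, and 3 had an unadjusted p under 0.05, as did 12886 of all 45037 probesets. At 72h 0 of 30 were called, with 0.528% of all probesets called, and 1 had an unadjusted p under 0.05, as did 6453 of all. At 7d 0 of 30 were called, with 0.948% called over the array, and 2 had an unadjusted p under 0.05, as did 7890 of all. The difference between the ethanol effects at 0h and at 72h was called for 0 of 30 (1.8% of all probesets), and between 0h and 7d for 0 of 30 (0.273% of all). The lowest adjusted p over the members was 0.0294 at 0h, 0.222 at 72h and 0.155 at 7d. With 6 mice a group, a p above the threshold does not show that levels were equal.

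**Figure D1:**
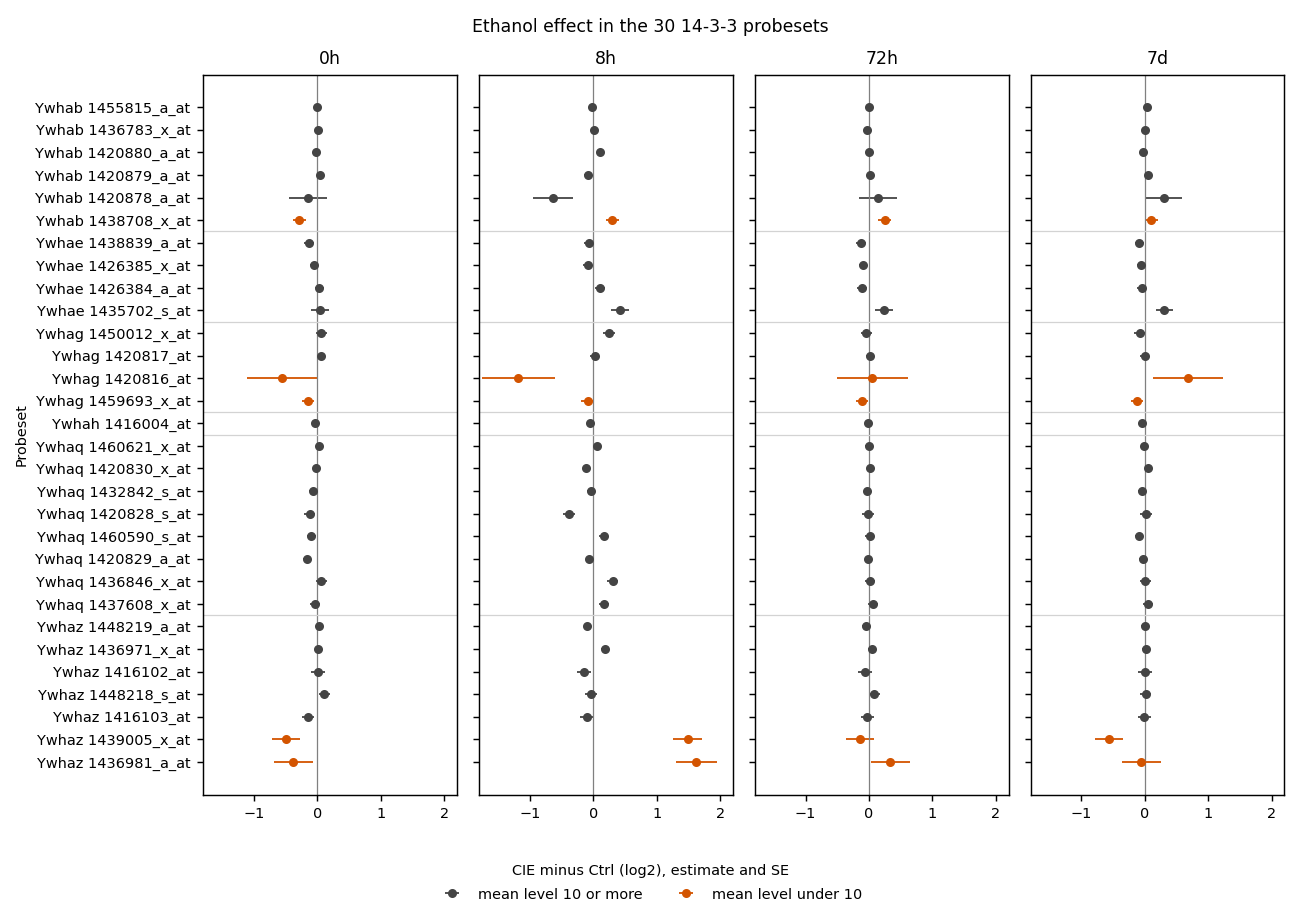
CIE minus Ctrl (log2, x axis) with its standard error for each of the 30 14-3-3 probesets (rows, by gene and then by mean level) at 0h, 8h, 72h and 7d; probesets with a mean level under 10 are orange. Bright probesets stay near 0 at 0h, 72h and 7d, while the 2 dim Ywhaz probesets lie at 1.49 and 1.62 at 8h.

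Ywhab encodes the beta isoform, known as a binding partner of Raf kinases, and lies on chromosome 2 (163995197 to 164018588, GRCm38.p6). Its brightest probeset, 1455815_a_at, was the steadiest of the family. In CIE mice it ran from 14.01 to 14.08 (median 14.06) at 0h, 14.02 to 14.10 (median 14.08) at 8h, 14.07 to 14.13 (median 14.09) at 72h and 14.04 to 14.15 (median 14.11) at 7d. Ctrl mice gave 13.96 to 14.11 (median 14.07) at 0h, 14.06 to 14.12 (median 14.08) at 8h, 14.07 to 14.14 (median 14.10) at 72h and 14.04 to 14.12 (median 14.06) at 7d. The ranges of CIE and Ctrl overlapped at each time, and the 8 group means spanned 0.05. Its next 3 probesets (1436783_x_at, 1420880_a_at and 1420879_a_at) differed by -0.09 to 0.10 over the 4 times. Signals this near the top of the array leave little room above them, and how far saturation flattens them was not tested.

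Ywhah, the eta isoform, lies on chromosome 5 (33018816 to 33027966) and was read by a single probeset, 1416004_at. CIE mice ran from 13.67 to 13.77 (median 13.73) at 0h, 13.54 to 13.76 (median 13.61) at 8h, 13.61 to 13.82 (median 13.69) at 72h and 13.66 to 13.75 (median 13.73) at 7d. Ctrl mice ran from 13.68 to 13.80 (median 13.76) at 0h, 13.65 to 13.78 (median 13.69) at 8h, 13.67 to 13.76 (median 13.70) at 72h and 13.72 to 13.83 (median 13.74) at 7d. The groups overlapped at each time. The estimate was below 0 at all 4 times (-0.03, -0.05, -0.01 and -0.04 from 0h to 7d), and the adjusted p in limma was 0.617 at 0h, 0.957 at 72h and 0.653 at 7d.

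The promoters of Ywhah and Ywhag hold letters of the cAMP response element, the site recognised by CREB, whose CRTC coactivators are bound by 14-3-3 proteins. A pair of windows of RefSeq sequence (GRCm38.p6) are shown because they carry the full and the partial site in capitals, each written 5′ to 3′ on the gene's own strand.
Ywhah, chr5:33018709-33018738, plus strand: tttatagtaggTGACGTCAccttaaaaaga
Ywhag, chr5:135934642-135934671, minus strand: ggcggtgacttttaCGTCAcccgtgtgggc
The motif TGACGTCA, which reads the same on both strands, began 96 bases before the start of Ywhah and was found within 250 bases before the start in 508 of 32851 promoters (1.55%). Its half-site TGACG, searched on both strands and contained in the full motif, occurred in 17.8% of promoters and, in Ywhag, as its reverse complement 16 bases before the start. Of the 4 member promoters in the table (Ywhae, Ywhag, Ywhah and Ywhaq), the half-site was in Ywhag and Ywhah, and the GC box GGGCGG, found in 32.7% of all promoters on either strand, was in Ywhae, Ywhag and Ywhah. A match of letters is a description and not a binding site. The coactivators Crtc1, Crtc2 and Crtc3 did not pass the limma test at 0h, with CIE minus Ctrl of 0.08, -0.24 and 0.18 and adjusted p of 0.586, 0.0676 and 0.382.

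Ywhae, the epsilon isoform, is needed for neuronal migration in mice and lies on chromosome 11 (75732887 to 75765841). Its brightest probeset, 1438839_a_at, ran in CIE mice from 11.84 to 12.25 at 0h, 11.84 to 12.25 at 8h, 11.78 to 12.23 at 72h and 12.01 to 12.11 at 7d. In Ctrl mice it ran from 11.99 to 12.30, 11.93 to 12.18, 12.02 to 12.30 and 11.99 to 12.33 at the same times. The estimate was below 0 at each time (-0.13, -0.06, -0.12 and -0.08), with overlapping groups and an adjusted p of 0.264 at 0h, 0.513 at 72h and 0.634 at 7d in limma. The probeset 1435702_s_at moved the other way: its differences were 0.04, 0.42, 0.24 and 0.31 from 0h to 7d. At 7d its values ran from 9.91 to 10.36 (median 10.23) in CIE mice and from 9.68 to 10.11 (median 9.85) in Ctrl mice. All 6 CIE mice stood above the Ctrl mean there, but the ranges overlapped and the adjusted p was 0.224. The remaining 1426384_a_at and 1426385_x_at differed by -0.11 to 0.11 and by -0.09 to -0.06. The suffix _s_at marks probes that can match more than one transcript, so the opposite signs within Ywhae are given by probeset and not averaged.

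Ywhag, the gamma isoform, is the gene of a developmental epilepsy in people and lies on chromosome 5 (135908379 to 135934641). Its brightest probeset, 1450012_x_at, ran in CIE mice from 12.81 to 12.97 at 0h, 12.71 to 13.63 at 8h, 12.67 to 13.10 at 72h and 12.77 to 12.88 at 7d. In Ctrl mice it ran from 12.71 to 12.95, 12.78 to 12.91, 12.83 to 13.18 and 12.79 to 13.11 at the same times. The 8 group means of this probeset spanned 0.27, the widest span among the brightest probesets of the 6 genes, and the highest value belonged to mouse 15. The second bright probeset, 1420817_at, differed by 0.06 at 0h, 0.02 at 8h, 0.02 at 72h and -0.0042 at 7d. The dimmest, 1459693_x_at, with a mean level of 4.31, was lower in CIE mice by 0.15, 0.09, 0.12 and 0.12 from 0h to 7d, with overlapping groups and adjusted p of 0.314 at 0h, 0.650 at 72h and 0.574 at 7d.

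Ywhaq, the theta isoform, lies on chromosome 12 (21390329 to 21417436) and was read by 8 probesets, all bright. Its brightest, 1460621_x_at, had group means between 12.92 and 13.06 and differences between -0.01 and 0.06. The lowest adjusted p of the family at 0h was on 1420829_a_at, which had values of 11.87 to 12.07 (median 11.96) in CIE mice and 12.06 to 12.25 (median 12.14) in Ctrl mice. All 6 CIE mice lay under the Ctrl mean and the ranges met only at their ends. The difference was -0.17 ± 0.06 (SE), and the adjusted p of 0.0294 missed the threshold. Of the other 7 probesets at 0h, 5 were lower in CIE mice (1420828_s_at by 0.12, 1460590_s_at by 0.09, 1432842_s_at by 0.07, 1437608_x_at by 0.04 and 1420830_x_at by 0.01). The remaining 1460621_x_at and 1436846_x_at had differences of 0.03 and 0.06, and none of the 7 passed the test. At 8h, 72h and 7d the estimates of 1420830_x_at, 1432842_s_at and 1460590_s_at lay between -0.11 and 0.17. The probesets went both ways at 8h: 1436846_x_at and 1437608_x_at were higher in CIE mice by 0.31 and 0.17, and 1420828_s_at was lower by 0.37. On 1420829_a_at the differences were -0.06 at 8h, -0.01 at 72h and -0.04 at 7d.

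**Figure D2:**
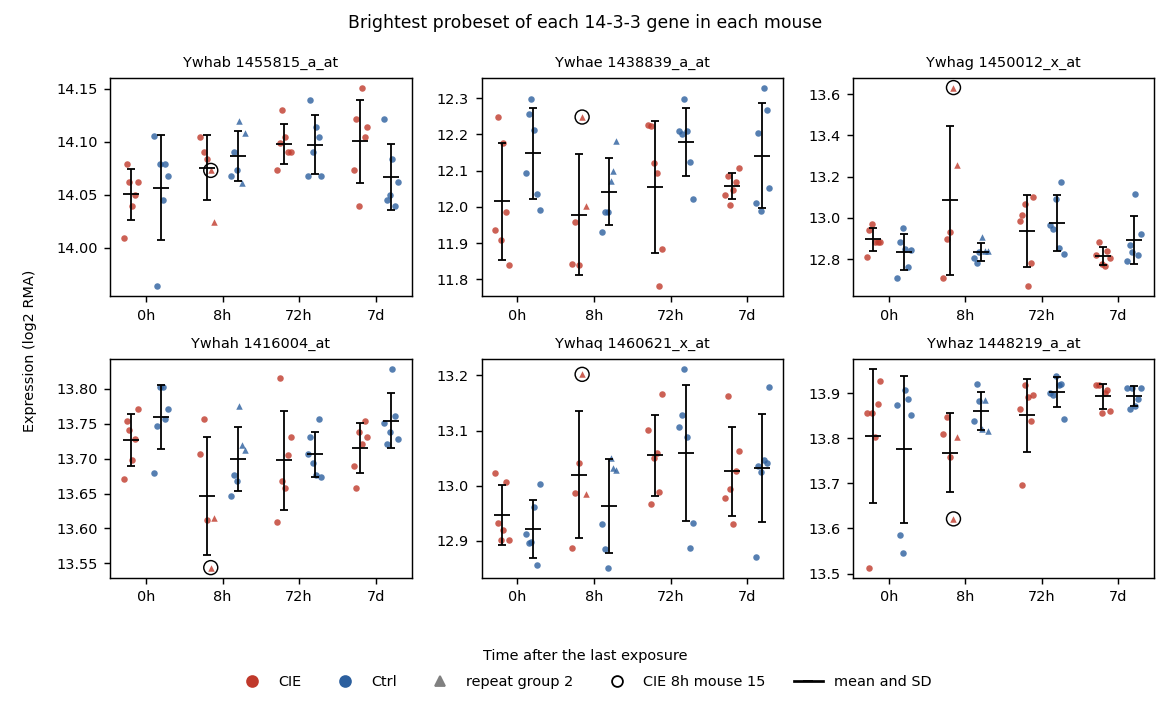
Log2 RMA level (y axis) of the brightest probeset of each 14-3-3 gene in every mouse by time after the last exposure (x axis), CIE in red left of Ctrl in blue, with mean and SD; triangles are repeat group 2 and the ring marks CIE 8h mouse 15. The span of the 8 group means runs from 0.05 (Ywhab) to 0.27 (Ywhag).

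Ywhaz encodes the zeta isoform, among the most studied of the family and a partner of many kinases and of the pro-death factor BAD, and lies on chromosome 15 (36770261 to 36802984). Of its 7 probesets, the 5 bright ones differed between CIE and Ctrl by -0.15 to 0.19 at 8h and the 2 dim ones by 1.49 and 1.62. The brightest, 1448219_a_at, ran in CIE mice from 13.51 to 13.93 (median 13.86) at 0h, 13.62 to 13.85 (median 13.80) at 8h, 13.70 to 13.92 (median 13.88) at 72h and 13.86 to 13.92 (median 13.90) at 7d. In Ctrl mice it ran from 13.54 to 13.91 (median 13.86) at 0h, 13.82 to 13.92 (median 13.86) at 8h, 13.84 to 13.94 (median 13.91) at 72h and 13.87 to 13.91 (median 13.90) at 7d. CIE and Ctrl overlapped at each time and differed by 0.03, -0.09, -0.05 and -0.00018 from 0h to 7d. The probeset 1416102_at differed by 0.01, -0.15, -0.06 and -0.0013 in the same order. Differences of 1436971_x_at and 1448218_s_at lay between -0.04 and 0.19. On 1416103_at they lay between -0.15 and -0.01, and at 8h they were -0.39 in repeat group 1 and 0.26 in repeat group 2. With array weights its difference at 8h was -0.30.

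The low values of both of these Ywhaz probesets fell in the same 5 mice. On 1416102_at the arrays of CIE 8h mouse 15, CIE 0h mouse 17, CIE 72h mouse 3 and Ctrl 0h mice 2 and 20 read 12.46, 12.39, 12.81, 12.73 and 12.57, while the other 42 arrays ran from 12.98 to 13.31. On 1448219_a_at the same 5 arrays ran from 13.51 to 13.70 and the other 42 from 13.76 to 13.94. Neither range overlapped, and these are the 5 arrays with the lowest mean correlation to the rest. They held both CIE and Ctrl mice and 3 of the 4 time points. None of the other 28 member probesets separated these arrays from the rest without overlap. Over all 47 arrays the deviations of both probesets from their group means correlated at r = 0.92, across arrays that share normalization.

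The dim probeset 1436981_a_at gave 5.13, 5.23, 5.45, 8.92 and 6.51 in the CIE 8h mice (mice 40, 51, 69, 15 and 23), against 4.42, 4.45, 4.31, 4.89, 5.05 and 4.63 in the Ctrl 8h mice. Every CIE mouse stood above every Ctrl mouse, and the CIE values spread widely because mice 15 and 23, both of repeat group 2, were the highest. The means were 6.25 ± 1.59 in CIE mice and 4.63 ± 0.29 in Ctrl mice (SD), a difference of 1.62 or 3.08-fold. Within repeat group 1 the difference was 0.88 and within repeat group 2 it was 2.86, or 1.66 without mouse 15, with mouse 23 then its only CIE mouse. Leaving out mouse 15 alone brought the whole difference to 0.95.

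The other dim probeset, 1439005_x_at, gave 7.44, 7.43, 7.66, 9.90 and 7.89 in the CIE 8h mice in the same order, against 6.36, 6.46, 6.23, 6.69, 7.05 and 6.67 in the Ctrl 8h mice. Again no CIE value fell within the Ctrl range. The means were 8.07 ± 1.04 in CIE mice and 6.58 ± 0.29 in Ctrl mice (SD), a difference of 1.49 or 2.81-fold, with 1.16 within repeat group 1 and 2.09 within repeat group 2. Without mouse 15 the difference within repeat group 2 was 1.09, which then rests on mouse 23 as its only CIE mouse, and over both repeat groups it was 1.03. The suffix _x_at marks probes that may cross-hybridise to other sequences.

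At the other times these dim Ywhaz probesets did not show a higher level in CIE mice, apart from 1436981_a_at at 72h with a difference of 0.34. On 1439005_x_at the values at 0h ran from 6.17 to 6.61 in CIE mice and from 6.63 to 7.03 in Ctrl mice, and at 7d from 6.41 to 6.59 in CIE mice and from 6.94 to 7.18 in Ctrl mice. The CIE mice lay wholly below the Ctrl mice at both times. The differences were -0.49 ± 0.22 at 0h (SE, adjusted p = 0.132) and -0.56 ± 0.22 at 7d (adjusted p = 0.155), and neither passed the limma test over all 47 arrays. That fit takes its spread from all 8 groups, CIE 8h included. Without CIE 8h mouse 15 both contrasts passed, with the same estimates and a limma adjusted p of 0.00663 at 0h and 0.00742 at 7d. That fit has another spread for every probeset, and its share of all probesets called is not given. These passes are therefore not read as particular to Ywhaz. On 1436981_a_at the CIE mice ran from 4.52 to 4.92 and the Ctrl mice from 4.97 to 5.30 at 0h, again without overlap. The difference was -0.38 with a limma adjusted p of 0.439. Its Ctrl means were 5.11, 4.57 and 4.79 at 0h, 72h and 7d, and its CIE means were 4.72, 4.90 and 4.73. The Ctrl mean was thus highest at 0h, while the CIE mean at 0h was near that at 7d.

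**Figure D3:**
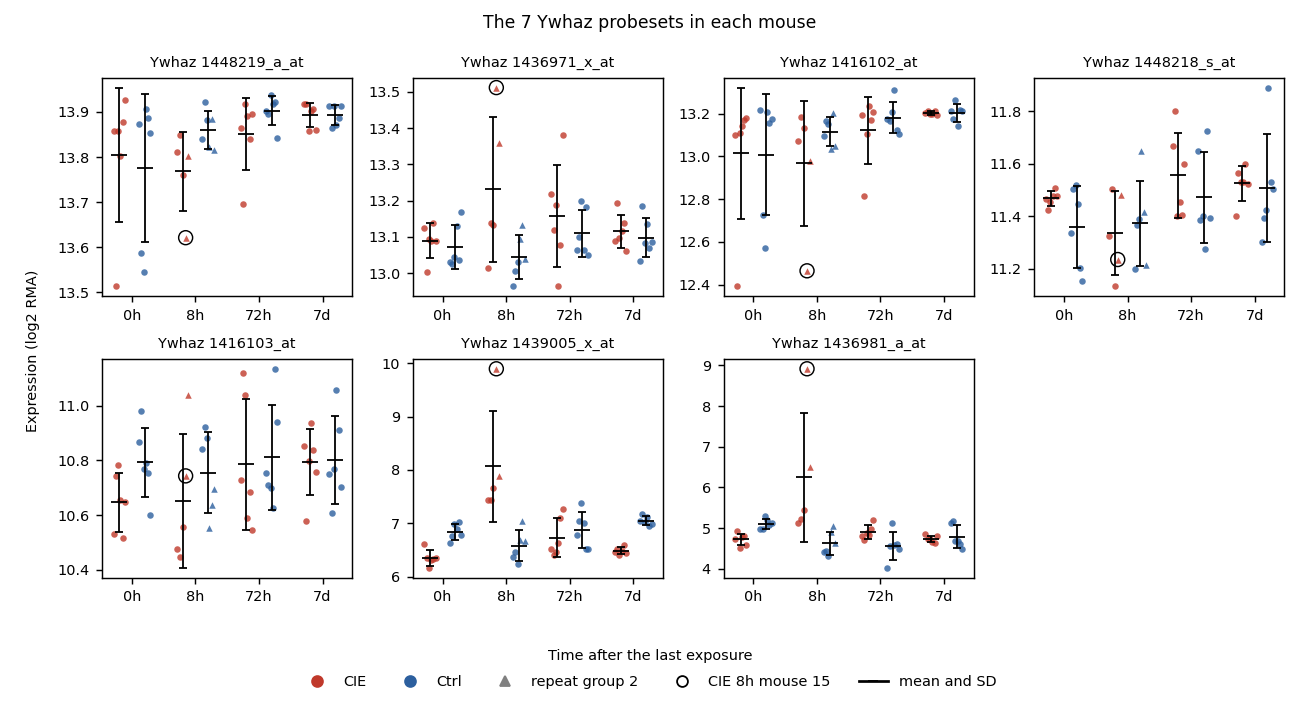
Log2 RMA level (y axis) of the 7 Ywhaz probesets in every mouse by time after the last exposure (x axis), ordered by mean level, CIE in red left of Ctrl in blue, with mean and SD; triangles are repeat group 2 and the ring marks CIE 8h mouse 15. Values of 1416102_at run from 12.39 to 13.31, while 1439005_x_at and 1436981_a_at reach 9.90 and 8.92 in mouse 15.

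Counts of separated groups can be read against the whole array. Ranges of CIE and Ctrl did not overlap for 3 of 30 member probesets at 0h (7.01% of all probesets), 2 at 8h (6.37%), 1 at 72h (2.08%) and 1 at 7d (3.35%). All were among the 5 dim probesets: 1436981_a_at at 0h and 8h, 1439005_x_at at 0h, 8h and 7d, and Ywhab 1438708_x_at at 0h and 72h. All 5 dim probesets were lower in CIE mice at 0h, by 0.15 to 0.56. Fitted to the arrays of 0h alone, where 2027 probesets were called in all, the same 3 probesets passed the limma test at 0h, with adjusted p of 0.0087 for 1436981_a_at, 0.0029 for 1439005_x_at and 0.0048 for 1438708_x_at. In the fit to the 7d arrays alone, with 247 called, 1439005_x_at passed with an adjusted p of 0.0011.

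The dim Ywhab probeset 1438708_x_at changed its order between times. At 0h it ran from 6.14 to 6.28 in CIE mice and from 6.41 to 6.65 in Ctrl mice, a difference of -0.29 ± 0.10 (SE, limma adjusted p = 0.0456). At 72h it ran from 6.12 to 6.23 in CIE mice and from 5.86 to 5.97 in Ctrl mice, a difference of 0.25 ± 0.10 (adjusted p = 0.222). The groups did not overlap at either time, and the CIE means were 6.21 and 6.16 while the Ctrl means were 6.50 and 5.91. The movement thus lay mostly in the air mice. It was the 1 member called when the Ctrl groups at 0h, 72h and 7d were compared (1.3% of all probesets; adjusted p = 0.0010, moderated F test in limma). The difference of the ethanol effects at 0h and 72h was -0.53. Its limma adjusted p of 0.0184 missed the threshold over all arrays. The adjusted p was 0.0049 without CIE 8h mouse 15 and 0.0082 without Ctrl 7d mouse 18. Those fits differ in spread from the main fit, and their shares of all probesets called are not given. Ctrl 7d mice were uneven on this probeset, with 6.54 and 6.48 in mice 18 and 22 and 5.75 to 5.91 in the other 4.

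Ywhag 1420816_at had the widest spread within groups of the 30 probesets (SD 1.00), followed by Ywhaz 1436981_a_at (0.55) and Ywhab 1420878_a_at (0.54). In the CIE 8h mice, Ywhag 1420816_at gave 7.76, 7.55, 7.50, 4.66 and 5.45 (mice 40, 51, 69, 15 and 23), against 7.31 to 8.23 (median 7.79) in Ctrl 8h mice. Both low values were from repeat group 2, where the difference was -2.62, while it was -0.24 in repeat group 1. At 0h it ran from 5.12 to 7.85 in CIE mice and from 5.55 to 8.29 in Ctrl mice, with a difference of -0.56 (adjusted p = 0.554). At 7d it ran from 7.80 to 8.54 in CIE mice and from 5.82 to 8.08 in Ctrl mice, with a difference of 0.68 (adjusted p = 0.575). Low mice thus occurred in both CIE and Ctrl groups. The 5 arrays of lowest mean correlation ran from 4.66 to 6.02 (median 5.30) on this probeset. The other 42 arrays ran from 5.37 to 8.54 (median 7.78). Ywhab 1420878_a_at read 10.98, 11.07, 10.74, 8.34 and 9.31 in the CIE 8h mice, against 10.41 to 11.04 in Ctrl 8h mice. Its differences were 0.24 in repeat group 1 and -1.94 in repeat group 2. Its median was 9.59 in the 5 arrays of lowest mean correlation and 10.76 in the other 42, with overlapping ranges. The parts of array quality and repeat group in the 8h differences of both probesets were not tested.

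**Figure D4:**
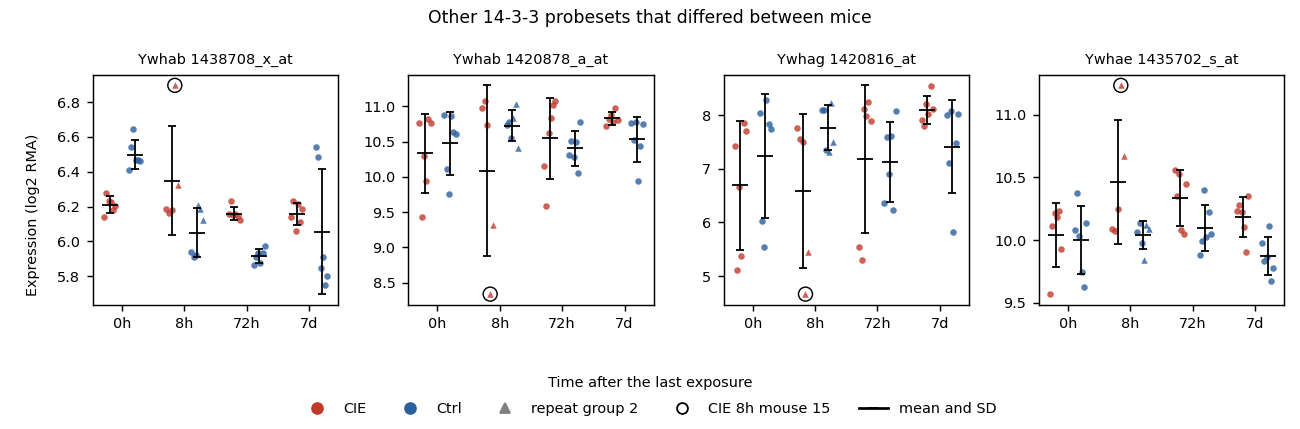
Log2 RMA level (y axis) of Ywhab 1438708_x_at and 1420878_a_at, Ywhag 1420816_at and Ywhae 1435702_s_at in every mouse by time after the last exposure (x axis), CIE in red left of Ctrl in blue, with mean and SD; triangles are repeat group 2 and the ring marks CIE 8h mouse 15. Mouse 15 is the highest or lowest CIE 8h value in each panel, for example 4.66 on Ywhag 1420816_at.

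At 8h, the comparison by which the family was picked, 3 of 30 probesets met the call rule where 3.39% of all probesets did, and nothing is read from that count. They were both dim Ywhaz probesets, higher in CIE mice, and Ywhaq 1420828_s_at, lower by 0.37. The Ywhaq probeset gave 12.65, 12.82, 12.78, 11.88 and 12.45 in the CIE mice and 12.72 to 12.99 in the Ctrl mice, and without mouse 15 its difference was -0.22 and it no longer met the rule. It met the rule in 16 of 56 alternative settings. Some of these left out a mouse of another time and so kept the same 8h estimate. The count was 5 without CIE 8h mouse 40 and with the repeat group as a term, and in the fit to the 8h arrays alone it was 0. The numbers of all probesets called in those fits are not given, so nothing is read from how the count moved. The sign of the difference was the same in both repeat groups for 21 of 30 probesets, and the absolute difference was larger in repeat group 2 for 24 of 30.

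**Figure D5:**
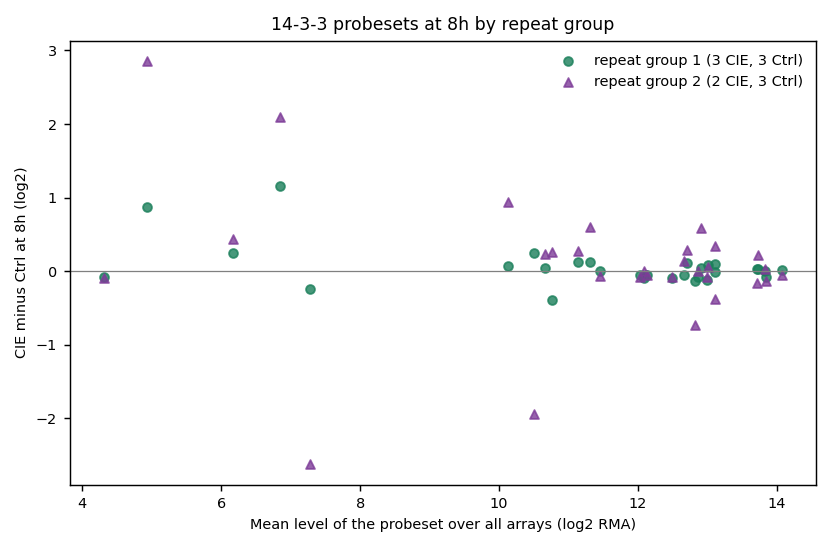
CIE minus Ctrl at 8h (log2, y axis) against the mean level of the probeset over all arrays (log2 RMA, x axis) for the 30 14-3-3 probesets, computed within repeat group 1 (circles) and repeat group 2 (triangles). Repeat group 2 spans -2.62 to 2.86 and repeat group 1 spans -0.39 to 1.16.

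Probesets of the same 14-3-3 gene did not vary together closely from mouse to mouse. The deviations from group means correlated with a median r of 0.17 over the 76 pairs within a gene (26 of them negative) and 0.06 over the 359 pairs between genes, across 47 arrays. Without mouse 15 the medians were 0.33 and 0.09. Within Ywhae r ran from 0.17 to 0.80, within Ywhaq its median was 0.54, and within Ywhaz it ran from -0.47 to 0.92. The dim pair of Ywhaz correlated at 0.89, or 0.64 without mouse 15.

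The genes with values most like Ywhaz 1436981_a_at over the 47 arrays were Map3k12 (r = 0.92, a kinase of axon injury signalling), Cbx1 (a heterochromatin protein), Rp2, Eif2s2 (a translation initiation subunit) and Tmed5. Without mouse 15 these correlations were 0.71, 0.70, 0.60, 0.72 and 0.63. Those most like the bright 1448219_a_at were Nlgn3 (a synaptic adhesion protein, r = 0.88), Hnrnpl (an RNA-binding protein), Ccar2, Snx27 (a protein of endosomal sorting) and Ece1. Those 5 stayed between 0.82 and 0.88 without mouse 15, with the other arrays of low mean correlation still included. These correlations include differences between arrays of any kind.

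Most genes around the family in its pathway did not pass the test. Of 43 listed client proteins 40 were measured, and at 0h 1 rose and 2 fell in CIE mice, a share near the 7.28% of all probesets called, so the calls are of single genes and not a feature of the list. Bad, the pro-death client that 14-3-3 proteins hold in the cytosol, averaged 9.54 ± 0.07 in CIE mice and 9.22 ± 0.10 in Ctrl mice (SD, n = 6 each), a difference of 0.32 seen in 6 of 6 CIE mice (limma adjusted p = 1.08e-05). Map3k5, the stress kinase ASK1, averaged 9.65 ± 0.17 in CIE mice and 9.97 ± 0.12 in Ctrl mice (adjusted p = 7.46e-04), and at 8h it was the 1 client called, with 10.21 ± 0.14 in CIE mice and 9.93 ± 0.08 in Ctrl mice. Lrrk2, a kinase whose 14-3-3 binding depends on its own phosphorylation, averaged 8.33 ± 0.27 in CIE mice and 8.79 ± 0.25 in Ctrl mice (adjusted p = 0.00609). At 72h and 7d 0 of 40 clients were called, and the median difference of the list was 0.02 at 0h, -0.07 at 72h and -0.0030 at 7d.

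Kinases able to phosphorylate 14-3-3 binding sites were represented by 27 of 30 listed genes. At 0h 2 of them rose, again a share near the 7.28% of all probesets, and both encode serum- and glucocorticoid-regulated kinases. Sgk3 averaged 9.93 ± 0.48 in CIE mice and 9.23 ± 0.14 in Ctrl mice (difference 0.70, adjusted p = 5.33e-04), and Sgk1 averaged 12.67 ± 0.41 and 12.06 ± 0.32 in the same groups (difference 0.61, adjusted p = 0.00740). At 8h Sgk1 was the 1 kinase called, with 12.59 ± 0.33 in CIE mice and 11.73 ± 0.18 in Ctrl mice. None of the 27 was called at 72h or 7d. The family's remaining gene, Sfn (14-3-3 sigma), which is known mainly from epithelia, had a mean level of 4.70, and its largest difference was -0.31 at 72h, where all 6 CIE mice lay below the Ctrl mean but the adjusted p was 0.197.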

How the data were processed

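Medial prefrontal cortex RNA from individual mice was hybridised to Affymetrix whole-genome mouse arrays. Deposited values were log2 expression, with a value for each probeset. Per the study's methods these came from RMA within each hybridization batch, quantile normalization over all arrays and ComBat on repeat group; their versions were not stated in the labels or methods read. ComBat acted on repeat groups that held unequal numbers of CIE and Ctrl mice at 8h, so differences at 8h may be distorted. Values were used as deposited, without a filter. No array duplicated another (0 identical pairs).

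Groups came from the sample labels, which number individual mice. The 47 arrays entered 1 limma 3.58.1 model (R 4.3.3) that estimated the 8 group means. Contrasts were CIE minus Ctrl at each time, differences between these effects, and a moderated F test over Ctrl 0h, 72h and 7d. P-values were adjusted by Benjamini-Hochberg over 45037 probesets and called at FDR ≤ 0.01. The fit was also run on simulated data with independent normal errors and known changes at 0h, 72h and 7d. That simulation held no change at 8h, no repeat group and no outlying array. Arrays give no read depth, so precision rests on the number of mice.

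Members were probesets with 1 of the 6 symbols in the array annotation. The members and gene lists were chosen with earlier results of these data known. Listed genes were read from their brightest probeset, with suffixes _x_at and _s_at last. All members were accounted for; listed genes were named if called at 0h, 72h or 7d, up to 4 per list, or the 2 of lowest p where none was, and likeness was given for the 5 best correlated genes. Alternatives were array weights, repeat group as a term, repeat group 1 alone, arrays of each time alone, a second quantile normalization, centring on array medians, trended robust variances, leaving out probesets under a mean level of 5, and leaving out each mouse. Sequences and gene positions are from RefSeq (GRCm38.p6).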

Additional observations from a re-analysis of the deposited data

Results flagged for a closer look

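Gaps between 1 mouse and the rest of its group were checked in 104 groups of member values, and 7 exceeded Dixon's 95% critical value, where chance flags about 1 in 20 groups. In CIE 8h, mouse 15 was the high mouse on Ywhaz 1439005_x_at (9.90) and on Ywhab 1438708_x_at (6.90). In CIE 72h, mouse 3 was high on Ywhab 1438708_x_at (6.23) and low on Ywhaz 1448219_a_at (13.70). CIE 0h mouse 17 was low on Ywhaz 1448219_a_at (13.51), and Ctrl 0h mouse 20 was low on Ywhaq 1420828_s_at (12.66). Ctrl 7d mouse 46 was high on Ywhah 1416004_at (13.83). All but the last of these mice had 1 of the 5 arrays with the lowest mean correlation to the rest.

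In several dim probesets every CIE mouse stood on one side of the Ctrl mean at one time and on the other side at another. The ethanol effect at 0h less that at 8h was -2.01 for Ywhaz 1436981_a_at, -1.98 for Ywhaz 1439005_x_at and -0.59 for Ywhab 1438708_x_at. The effect at 8h less that at 7d was 2.05 for Ywhaz 1439005_x_at and -1.86 for Ywhag 1420816_at. These differences were not tested, since the comparison at 8h was the one by which the family was picked and its arrays span both repeat groups.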

How the results depend on the processing

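Leaving out 1 mouse at a time gave 0 to 1 members called at 0h, 0 to 0 at 72h, 0 to 1 at 7d, 2 to 5 at 8h, 1 to 1 across the Ctrl times, 0 to 1 for the effect at 0h less 72h and 0 to 0 for 0h less 7d. The count of members with the same sign in both repeat groups ran from 20 to 24 and the median correlation within a gene from 0.15 to 0.33, highest without CIE 8h mouse 15, in settings for correlation added after seeing the data. The single call at 0h and at 7d came without CIE 8h mouse 15, the 5 calls at 8h without CIE 8h mouse 40, and the call for 0h less 72h without Ctrl 7d mouse 18 or CIE 8h mouse 15. With repeat group 1 arrays only, the counts were 1 at 0h, 1 at 7d, 2 across the Ctrl times and 2 for 0h less 72h. With the arrays of a time alone, they were 3 at 0h, 0 at 8h and 1 at 7d. Array weights gave 1 at 7d, 1 for 0h less 72h and 1 for 0h less 7d. Repeat group as a term gave 5 at 8h and 1 for 0h less 72h. Without the 5 arrays of lowest mean correlation, a setting chosen after seeing the data, 1 member was called at 7d. Among these alternative fits, the number of all probesets called is given above only for the fits to 0h alone and 7d alone. The counts are therefore not read as particular to the members. The causes were not tested. Over 13 member probesets, 2908 alternative values left 2833 in place, moved 18 at 8h by more than 1 SD and brought 10 past the threshold. At 8h a turn of sign in an estimate that was not called was not counted apart. Ywhab 1455815_a_at, for example, ran there from -0.019 to 0.0013 over single mice left out. At 0h, 72h and 7d the sign turned in 47, all of estimates that passed in neither setting. Over single mice left out, such estimates ran at 0h from -0.29 to 0.037 (Ywhab 1420878_a_at), -0.025 to 0.0037 (Ywhab 1455815_a_at), -0.031 to 0.14 (Ywhae 1435702_s_at) and -0.016 to 0.089 (Ywhaz 1448219_a_at). At 72h they ran from -0.16 to 0.43 (Ywhag 1420816_at), -0.073 to 0.014 (Ywhag 1450012_x_at), -0.0061 to 0.0088 (Ywhab 1455815_a_at), -0.032 to 0.0090 (Ywhah 1416004_at), -0.046 to 0.019 (Ywhaq 1420828_s_at) and -0.038 to 0.027 (Ywhaq 1460621_x_at). At 7d they ran from -0.12 to 0.018 (Ywhaz 1436981_a_at), -0.0058 to 0.0071 (Ywhaz 1448219_a_at), -0.0015 to 0.054 (Ywhaq 1420828_s_at) and -0.040 to 0.022 (Ywhaq 1460621_x_at). Array weights gave 0.0063 for Ywhaq 1420828_s_at and -0.0075 for Ywhab 1455815_a_at at 72h. A second quantile normalization gave -0.0027 for Ywhab 1455815_a_at at 72h and 0.00091 for Ywhaz 1448219_a_at at 7d. Without the 5 arrays the values were 0.019 for Ywhaq 1420828_s_at and 0.014 for Ywhaq 1460621_x_at at 72h and -0.016 for Ywhaz 1448219_a_at at 0h. No paired analysis was possible because no mouse number occurs in more than 1 group. Signal near the top of the scale limits what the bright probesets can show, and the dim ones lie closer to background.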

Other observations

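Cell type marker lists gave few calls at the times outside 8h. At 0h 7.28% of all probesets were called. Of 9 measured cortical excitatory neuron genes 1 rose at 0h (Neurod2, 0.43, limma adjusted p = 4.20e-04) and 1 fell (Neurod6, -0.38, adjusted p = 0.00831). Among 9 microglial genes 1 fell, Fcrls, with a difference of -1.29 (adjusted p = 1.80e-07), with a median of -0.04 over the list. At 0h 0 of 8 inhibitory neuron, 0 of 10 astrocyte, 0 of 9 oligodendrocyte, 0 of 9 endothelial and 0 of 10 striatal genes were called, and no list had a call at 72h or 7d. The lowest p of these lists belonged to Sst (-0.19, adjusted p = 0.0480) and Lhx6 (-0.28, 0.271) in inhibitory neurons, S100b (-0.40, 0.0295) and Fgfr3 (0.21, 0.100) in astrocytes, and Mog (0.29, 0.422 at 0h) and Opalin (-0.38, 0.424 at 7d) in oligodendrocytes. In endothelial cells they were Flt1 (0.23, 0.207) and Pecam1 (0.21, 0.369), and in striatal neurons Ppp1r1b (0.79, 0.0262) and Rasd2 (0.57, 0.0472), all at 0h unless named. At 8h, where 3.39% of all probesets were called, the marker genes called were Sst (-0.29), P2ry12 (-0.57) and Fcrls (-0.89), each lower in CIE mice. Of the 9 microglial genes 4 were higher and 5 lower at 8h, with a median of -0.04. Of the 8 inhibitory neuron genes 3 were higher and 5 lower, with a median of -0.05. The striatal list was also higher in all 10 genes at 72h, with a median of 0.43 and mean levels from 8.19 to 10.1 in CIE mice and 8.24 to 9.08 in Ctrl mice. Its part in the 14-3-3 values at 72h was not tested.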
